A study of Bos taurus with 9 samples.

Results

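The 5 genes followed in the liver of lactating Holstein cows belong to the cytokine-cytokine receptor interaction pathway and are *IL17B*, *TNFSF9*, *CLCF1*, *CD70* and *LOC616364*. They are 5 of the 28786 genes listed in the read count table, and all 5 had counts. They were chosen because the study's DESeq2 comparison had called them lower in pair-fed (PF) than in thermoneutral (TN) cows. The PF vs. TN values below therefore describe that choice, and the calls and p-values among them are not read as tests. The heat stress (HS) values share the TN or the PF cows with it, so the tests on them are also read as descriptions.

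Liver biopsies came from 3 TN cows kept at thermoneutrality, 3 HS cows kept under a raised temperature and humidity load, and 3 PF cows kept at thermoneutrality with feed held to the intake of HS cows. Reduced intake is thus shared by the HS and PF groups by design, and only the HS group was heated. Each library is 1 cow. The 9 libraries held 16874444 to 22557047 counted reads, and levels are given as CPM (counts scaled to a common library size) after trimmed mean of M values (TMM) normalization. A level of 3 counts corresponded to 0.111 to 0.202 CPM, depending on the library. One TN library, replicate 1, stood apart on the first principal component (35.8% of the variance), at -51.6 against -9.71 to 21.1 in the other 8. The log2 fold changes of the followed genes against TN cows were therefore also computed without it. So were the counts of calls among these genes and among the other cytokine and receptor genes. Levels, correlations, marker sums and the fold changes of all other genes were computed only with this library included. The share of reads from the 13 mitochondrial protein-coding genes was 13.6 to 22.2% in TN, 6.90 to 7.79% in PF and 3.84 to 5.68% in HS libraries, and its part in the results was not tested. The 6 hepatocyte markers fixed for the check of the tissue label (*ALB*, *APOA1*, *TTR*, *SERPINA1*, *FGB* and *TF*) were detected in every group, with a summed level of at least 15347 CPM in each library. That lowest sum was also in TN replicate 1.

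Cytokines are secreted or membrane-bound proteins through which cells signal to neighbours carrying the matching receptor. *TNFSF9* (4-1BB ligand) and *CD70* (CD27 ligand) belong to the tumor necrosis factor (TNF) superfamily and are displayed mainly by antigen-presenting cells and activated lymphocytes, where they co-stimulate T cells. *IL17B* is a member of the interleukin-17 family that binds IL17RB. *CLCF1* belongs to the interleukin-6 family and signals through CNTFR, LIFR and IL6ST. The sources used here do not say what *LOC616364* encodes. In the RefSeq gene table it lies beside *CCL3*, a gene for a C-C chemokine that attracts leukocytes. In liver, such ligands are made mostly by resident and recruited immune cells and can act on hepatocytes and stellate cells.

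All 5 genes had their highest level in a TN cow, and the 3 PF cows lay below the 3 TN cows for each of them. By group means, HS cows were the lowest for *LOC616364* and lay between PF and TN cows for the other 4 genes. HS and PF cows overlapped for *IL17B*, *CD70* and *LOC616364*, and every HS cow was above every PF cow for *TNFSF9* and *CLCF1*. The levels per cow are plotted by group.

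**Figure D1:**
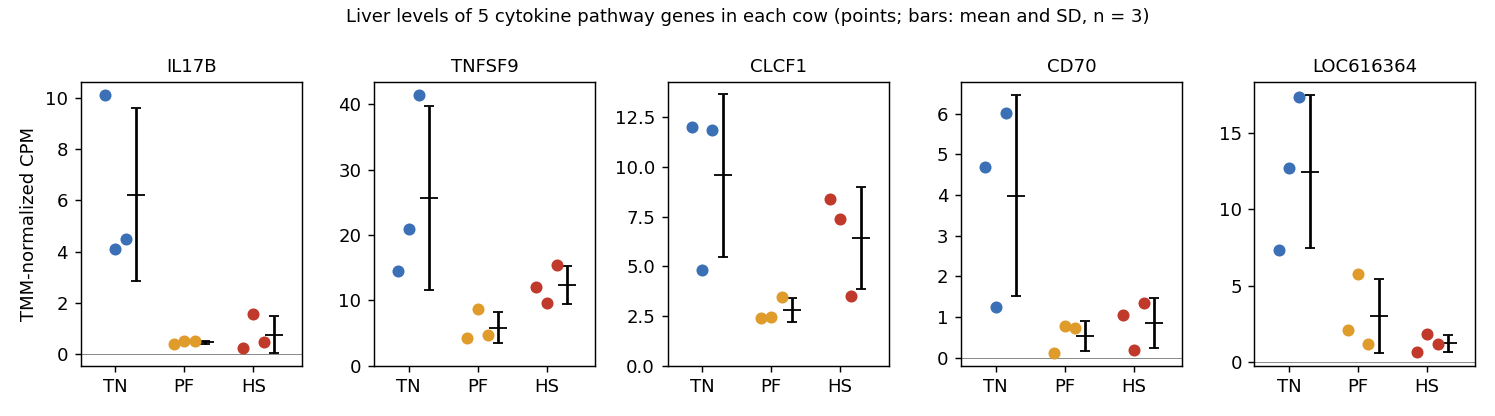
TMM-normalized CPM of each gene (vertical axes, linear, separate scale per gene) in each TN, PF and HS cow (points), with the group mean and SD (black bars, n = 3). The TN points lie above all PF points in every panel, and the HS points of *TNFSF9* and *CLCF1* lie above the PF points.

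*TNFSF9* stood at 14.5, 20.9 and 41.5 CPM in the TN cows (330, 338 and 695 counts), with a mean of 25.6 ± 14.1 (SD, n = 3). In the PF cows its level was 4.23, 8.64 and 4.66 CPM (72, 154 and 91 counts), with a mean of 5.84 ± 2.43. In the HS cows it was 12, 9.61 and 15.4 CPM (324, 164 and 229 counts), with a mean of 12.4 ± 2.93. Every PF cow was thus below every HS and every TN cow, and HS replicate 3 overlapped the TN range. The fold difference was 4.40-fold lower in PF than in TN cows (log2 fold change -2.14, SE 0.42) and 2.10-fold lower in HS than in TN cows (-1.07, SE 0.37). Without TN replicate 3, the highest cow, the HS vs. TN value was -0.55, and its unadjusted edgeR p no longer passed 0.05 (0.108).

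*CD70*, the neighbouring TNF superfamily ligand, was covered by few counts. It was at 4.70, 1.24 and 6.03 CPM in TN cows (107, 20 and 101 counts; mean 3.99 ± 2.47). Levels in PF cows were 0.117, 0.785 and 0.716 CPM (2, 14 and 14 counts; mean 0.540 ± 0.367). In HS cows they were 1.04, 0.176 and 1.35 CPM (28, 3 and 20 counts; mean 0.854 ± 0.608). TN replicate 2 was above every PF cow but below HS replicate 3, so the HS and TN ranges overlapped. One PF and one HS library were at or below 3 counts. *CD70* was 7.36-fold lower in PF than TN cows (log2 fold change -2.88, SE 0.78) and 4.75-fold lower in HS than TN cows (-2.25, SE 0.77).

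*IL17B* showed the largest PF difference among the 5 genes. The TN cows had 10.1, 4.09 and 4.48 CPM (230, 66 and 75 counts), with a mean of 6.22 ± 3.36. The PF cows had 0.411, 0.505 and 0.512 CPM (7, 9 and 10 counts), with a mean of 0.476 ± 0.0561. The HS cows had 0.260, 1.58 and 0.472 CPM (7, 27 and 7 counts), with a mean of 0.771 ± 0.710. All 6 cows on low intake were below the lowest TN cow. Only 4 of the 14580 genes tested had a more negative log2 fold change in PF vs. TN than *IL17B* (-3.71, SE 0.55; 13.1-fold lower). In HS vs. TN the log2 fold change was -3.08 (SE 0.70; 8.47-fold lower). TN replicate 1, the library that stood apart, held the highest *IL17B* level, and without it the log2 fold changes were -3.14 in PF and -2.50 in HS cows. Without HS replicate 2, the highest HS cow, the HS value was -4.16.

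*CLCF1* stood at 12, 4.83 and 11.9 CPM in TN cows (274, 78 and 199 counts; mean 9.58 ± 4.11). Its PF levels were 2.41, 2.47 and 3.48 CPM (41, 44 and 68 counts; mean 2.79 ± 0.602). Its HS levels were 8.39, 7.38 and 3.50 CPM (226, 126 and 52 counts; mean 6.43 ± 2.58). The PF cows were the lowest, while HS replicates 1 and 2 were within the TN range and HS replicate 3 barely exceeded the highest PF cow. The gene was 3.47-fold lower in PF than TN cows (log2 fold change -1.79, SE 0.42). In HS vs. TN the log2 fold change was -0.61 (SE 0.43), and its 95% interval of -1.57 to 0.36 included no change.

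*LOC616364* was at 7.33, 12.7 and 17.4 CPM in TN cows (167, 205 and 291 counts; mean 12.5 ± 5.02). PF cows had 2.11, 5.78 and 1.18 CPM (36, 103 and 23 counts; mean 3.02 ± 2.43). HS cows had 0.668, 1.82 and 1.15 CPM (18, 31 and 17 counts; mean 1.21 ± 0.577). All PF and HS cows were below the lowest TN cow. PF replicate 2 was closest to the TN range, and without it the PF vs. TN log2 fold change was -2.92 in place of -2.05 (SE 0.54; 4.14-fold lower). The gene was 10.6-fold lower in HS than TN cows (log2 fold change -3.40, SE 0.46).

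For PF vs. TN, the contrast that chose the genes, calls were made at FDR below 0.1 and a fold change over 1.5. DESeq2 called 5 of 5 genes lower, where it called 0.347% of all genes lower and 0.207% higher. The edgeR quasi-likelihood F test called 0 of 5, where it called 0% of all genes in either direction, and 5 of 5 had an unadjusted p below 0.05 and non-overlapping groups. Over all genes, 3.89% were lower and 2.99% higher at that unadjusted p, and 6.34% were lower without overlap. Since these values chose the genes, nothing is read from the counts. The member nearest the threshold was *LOC616364*, with a DESeq2 FDR of 0.0456. The cytokine pathway genes next outside it on the lower side were *TNFRSF10D*, a decoy receptor for TRAIL, and *TNFRSF4* (OX40), a T-cell co-stimulatory receptor, with DESeq2 FDRs of 0.367 and 0.393. *TNFRSF10D* averaged 57.8 ± 21.2 CPM in TN and 30.3 ± 7.82 in PF cows, and *TNFRSF4* 14.9 ± 8.65 in TN and 6.32 ± 2.13 in PF cows (n = 3). The median log2 fold change was -2.14 over the 5 genes and -0.01 over all genes tested. Without TN replicate 1 the log2 fold changes were -2.41 for *TNFSF9*, -2.72 for *CD70*, -1.58 for *CLCF1* and -2.30 for *LOC616364*.

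The HS vs. TN comparison asked whether the same genes were lower in heat-stressed cows. *LOC616364* was the 1 of 5 genes called lower by edgeR (FDR 0.0718), where 0.0549% of all genes were called lower and 0.0343% higher. The adjusted p-values from edgeR were 0.270 for *IL17B*, 0.456 for *TNFSF9* and *CD70*, and 0.643 for *CLCF1*. DESeq2 called 2 of 5 lower, *LOC616364* (FDR 6.13e-09) and *IL17B* (FDR 0.000761), where it called 0.889% of all genes lower and 0.863% higher. At an unadjusted edgeR p below 0.05, 4 of 5 were lower, where 5.23% of genes were lower and 4.13% higher. Groups did not overlap for 2 of 5 genes, *IL17B* and *LOC616364*, where 7.48% of all genes were lower without overlap. The median log2 fold change was -2.25 over the 5 genes and -0.01 over all genes. The *LOC616364* call was lost when HS replicate 1, HS replicate 2, HS replicate 3 or TN replicate 3 was left out (FDR up to 0.225), while its log2 fold change stayed between -3.82 and -3.08. Without TN replicate 1, the library that stood apart, the HS vs. TN log2 fold changes were -3.66 for *LOC616364* (FDR 0.0774), -2.08 for *CD70*, -1.34 for *TNFSF9* and -0.38 for *CLCF1*.

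Setting HS against PF cows compares heated and unheated cows of matched intake. *TNFSF9* was 2.10-fold higher in HS cows (log2 fold change 1.07, SE 0.34) and *CLCF1* 2.30-fold higher (1.2, SE 0.40), each with every HS cow above every PF cow. Neither passed the edgeR test after adjustment over 14510 genes (FDR 0.642 and 0.679). For *CD70* the log2 fold change was 0.64 (SE 0.91), with a 95% interval of -1.35 to 2.64 that leaves a large difference in either direction possible. *LOC616364* was 2.52-fold lower in HS cows (log2 fold change -1.33, 95% interval -2.80 to 0.14), with overlapping groups, and without PF replicate 2 the value was -0.46. *IL17B* had too few counts in both groups for the edgeR fit. Its DESeq2 log2 fold change was 0.68 (SE 0.97).

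Both tools called 0 of the 5 genes in HS vs. PF, and 2 of the 4 tested, *TNFSF9* and *CLCF1*, had an unadjusted edgeR p below 0.05. Over all genes, edgeR called 0.00689% higher and 0.0207% lower, and DESeq2 0.462% higher and 0.31% lower. At the unadjusted threshold 3.07% of genes were higher and 2.25% lower, and 6.06% were higher without overlap. The fold changes of the 3 comparisons are plotted with their intervals.

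**Figure D2:**
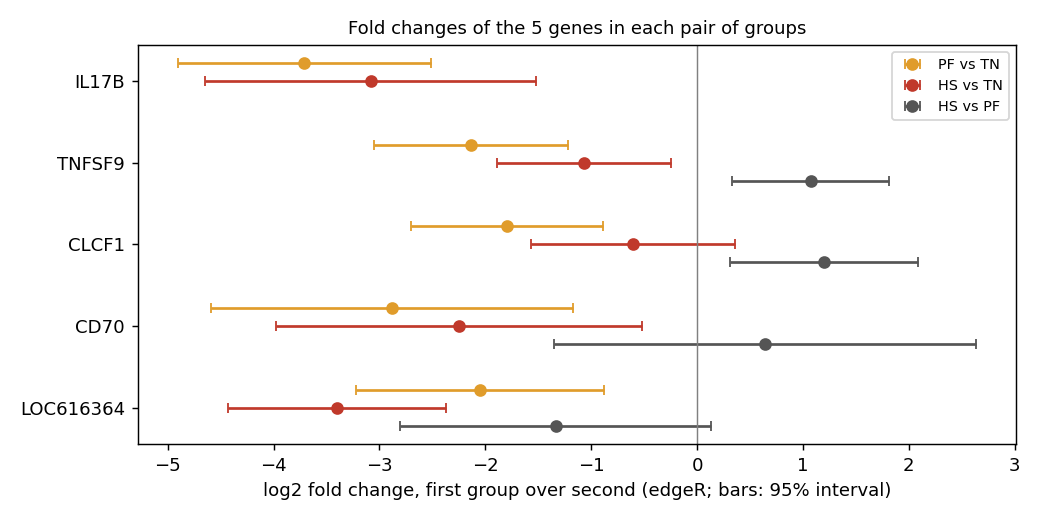
edgeR log2 fold change (horizontal axis, first group over second) of each gene in PF vs. TN, HS vs. TN and HS vs. PF, with 95% intervals as bars. The PF vs. TN points (from -3.71 to -1.79) describe the choice of the genes, and *IL17B* has no HS vs. PF value.

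The known receptors of *TNFSF9*, *CD70*, *IL17B* and *CLCF1* were read next, while no receptor can be named for *LOC616364*. Of these partner receptor genes, 5 had enough counts to test in each comparison, and edgeR and DESeq2 called 0 of them, with 0 at an unadjusted p below 0.05 and overlapping groups throughout. *IL6ST* (gp130), the shared signaling chain of the interleukin-6 family, averaged 178 ± 23.6 CPM in TN cows, 246 ± 82.6 in PF cows and 221 ± 21.5 in HS cows (n = 3). Its partner *LIFR* averaged 124.8 ± 22.1, 135 ± 51.7 and 96.8 ± 26.6 CPM. *CNTFR*, the ligand-binding chain for *CLCF1*, averaged 2.53 ± 0.169, 2.73 ± 1.09 and 2.67 ± 0.596 CPM. The groups overlapped for all 3 chains, and the PF means were not below the TN means.

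*CD27*, the *CD70* receptor on lymphocytes, averaged 3.21 ± 0.985 CPM in TN cows, 2.89 ± 0.508 in PF cows and 2.36 ± 0.380 in HS cows. *IL17RB* averaged 0.910 ± 0.574, 0.579 ± 0.588 and 0.535 ± 0.545 CPM. *TNFRSF9* (4-1BB), the *TNFSF9* receptor, averaged 0.225, 0.146 and 0.183 CPM and had too few counts for the edgeR fit. A difference in *TNFRSF9* was not detectable at this depth. In PF vs. TN the log2 fold changes were -0.67 (SE 1.13) for *IL17RB*, -0.15 (SE 0.45) for *CD27*, 0.10 (SE 0.50) for *CNTFR*, 0.10 (SE 0.34) for *LIFR* and 0.46 (SE 0.34) for *IL6ST*.

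The rest of the pathway was read through 252 other cytokine and receptor genes in 11 lists, the partner receptors included, of which 246 were in the table and 218 had counts. In PF vs. TN cows 158 were tested and edgeR called 0. At an unadjusted p below 0.05, 4 were higher and 7 lower (against 2.99% and 3.89% of all genes). The median log2 fold change of the 158 was -0.14. The other TNF superfamily ligands had a median of -0.33 over 11 tested genes and the TNF receptors -0.33 over 19. The chemokine receptors had -0.33 over 17, of which 13 were lower, and the chemokine ligands -0.26 over 23, of which 17 were lower. On the higher side, the TGF-beta family had a median of 0.18 over 27 tested genes, of which 16 were higher, the class II cytokines and receptors 0.11 over 8, of which 6 were higher, the partner receptors 0.10 over 5 and the other interleukin-6 family genes 0.04 over 8. The lists and the 5 genes are plotted on one scale.

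**Figure D3:**
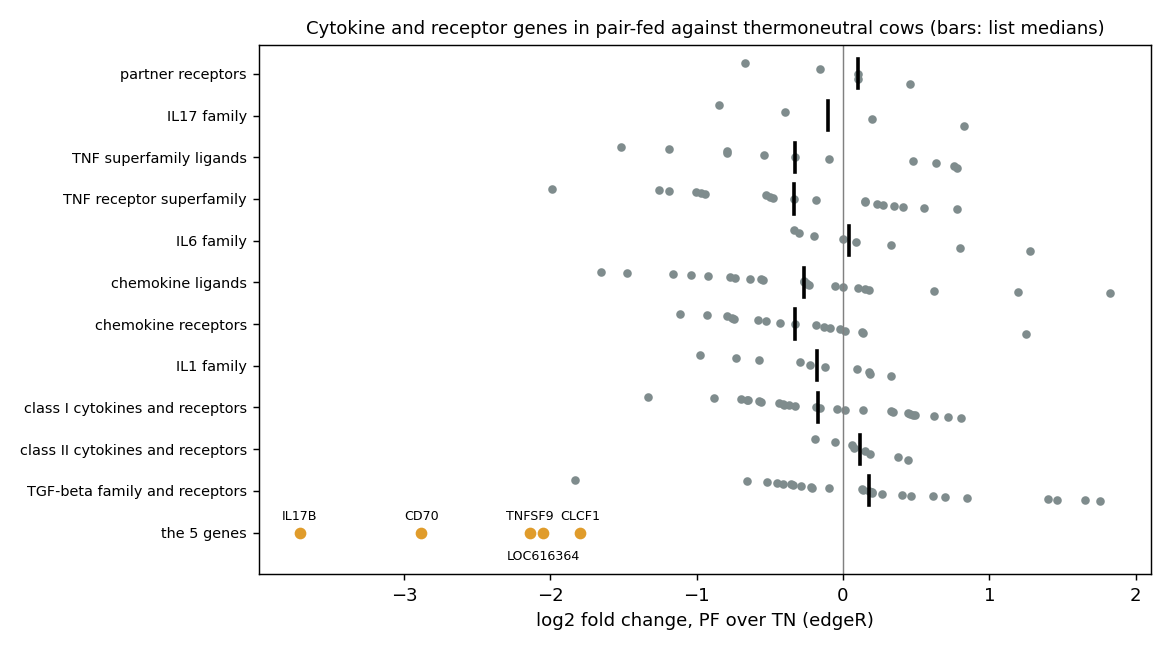
edgeR log2 fold change of PF over TN cows (horizontal axis) for every tested gene of 11 cytokine and receptor lists (grey points, black bars at list medians) and for the 5 genes (orange). The 5 genes lie at -3.71 to -1.79 because they were chosen on this contrast, and the list medians lie between -0.33 and 0.18.

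DESeq2 called 1 of the 183 of these genes that it tested in PF vs. TN, where it called 0.207% of all genes higher and 0.347% lower. That gene was *INHBE* (FDR 0.0502, higher), the beta E subunit of activin, a hepatokine of the TGF-beta family. *INHBE* averaged 9.64 ± 3.50 CPM in TN cows, 26.9 ± 10.5 in PF cows and 34.9 ± 4.17 in HS cows, the opposite direction to the 5 genes. Its relative *INHBC* averaged 1.11 ± 0.449, 3.57 ± 1.09 and 4.93 ± 1.71 CPM. On the lower side, *TNF*, the founding TNF superfamily ligand, averaged 3.61 ± 1.01 CPM in TN cows, 1.27 ± 0.827 in PF cows and 2.19 ± 0.854 in HS cows. *IL12RB1*, a receptor chain for interleukins 12 and 23, averaged 3.75 ± 1.09, 1.5 ± 0.521 and 1.95 ± 0.447 CPM, and *AMH*, a TGF-beta family hormone, 3.25 ± 1.55, 0.920 ± 0.665 and 2.92 ± 0.422 CPM. The TN and PF ranges of these last 3 genes did not overlap, which the rule that named them required. Their edgeR FDR in PF vs. TN was 0.708 each. Of the 158 genes tested, 12 were lower and 6 higher without overlap, against 6.34% and 6.92% of all genes.

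In HS vs. TN cows 161 of the other genes were tested and edgeR called 0. At an unadjusted p below 0.05, 6 were higher and 7 lower (against 4.13% and 5.23% of all genes). DESeq2 called 3 of the 170 that it tested, where it called 0.863% of all genes higher and 0.889% lower. These were *INHBE* (FDR 4.17e-05) and *INHBC* (FDR 0.00961), higher, and *CXCL3* (FDR 0.0303), lower. *CXCL3*, a neutrophil-attracting chemokine, averaged 119.9 ± 49.8 CPM in TN cows, 73.0 ± 40.9 in PF cows and 38.0 ± 29.2 in HS cows. By the same naming rule, *TNFSF13* (APRIL), a B-cell survival ligand, had a log2 fold change of 1.05 (SE 0.45), *IL12RB1* -0.98 (SE 0.43), *IL17D*, a relative of *IL17B*, -0.80 (SE 0.30), and *IL23A*, the p19 subunit of interleukin-23, -0.66 (SE 0.23), all without a call. *IL17D* averaged 7.93 ± 1.87 CPM in TN cows, 4.45 ± 1.97 in PF cows and 4.69 ± 0.396 in HS cows.

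In HS vs. PF cows 161 other genes were tested and edgeR called 0. At an unadjusted p below 0.05, 9 were higher and 3 lower (against 3.07% and 2.25% of all genes). DESeq2 called 1 of the 177 that it tested, where it called 0.462% of all genes higher and 0.31% lower. That gene was *IL1R2*, the decoy receptor for interleukin-1 (FDR 0.00287), at 3.63 ± 2.01 CPM in PF and 18.8 ± 14.8 in HS cows. With so few DESeq2 calls, no trait of the lists is read from them in any comparison. The remaining genes named by the rule were *TNFRSF13C* (BAFF receptor; log2 fold change 1.94, SE 0.75), *AMH* (1.65, SE 0.67), *IL23A* (-0.61, SE 0.23) and *CXCR6*, a chemokine receptor of T and NK cells (-0.53, SE 0.23). None of these 4 was called by either tool.

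*CD70* and *TNFSF9* are neighbours on the chromosome, in a cluster with the ligand gene *TNFSF14* (LIGHT), and the levels of the genes beside them were read per cow. *LOC112447358*, a long noncoding RNA gene that overlaps *CD70* in the RefSeq table, stood at 11.9, 8.61 and 16.5 CPM in TN cows, 5.82, 4.09 and 0.409 CPM in PF cows, and 1.34, 0.117 and 7.95 CPM in HS cows. *LOC101905992*, a protein-coding gene on the other side of *TNFSF9*, stood at 13.1, 9.10 and 12.9 CPM in TN cows, 2.41, 2.52 and 4.20 CPM in PF cows, and 5.23, 7.85 and 7.35 CPM in HS cows. *TNFSF14* stood at 2.50, 2.60 and 1.55 CPM in TN cows, 0.940, 1.29 and 0.716 CPM in PF cows, and 0.817, 1.17 and 1.69 CPM in HS cows. In each of these 3 genes the PF cows lay below the TN cows without overlap, as did 6.34% of all genes. edgeR called none of the 3, but it called 0% of all genes in this comparison. The lack of an edgeR call therefore does not set them apart from the 5 genes. DESeq2, which called the 5 genes, did not call *TNFSF14* (FDR 0.685). Its results for *LOC112447358* and *LOC101905992* are not given here.

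The PF vs. TN log2 fold change was -1.85 (SE 0.65) for *LOC112447358*, -1.95 (SE 0.35) for *LOC101905992* and -1.18 (SE 0.61) for *TNFSF14*, with edgeR FDRs of 0.697, 0.344 and 0.709. The edgeR FDRs of the 5 genes in that comparison, which chose them, ran from 0.148 (*IL17B*) to 0.625 (*CD70*). *LOC101905992* had the same order of groups as *TNFSF9*, with a log2 fold change of -0.82 (SE 0.28) in HS vs. TN and 1.15 (SE 0.36) in HS vs. PF, without overlap in either. Whether counting used strand is not stated in the sources used here, so it is not known whether *CD70* and the gene overlapping it share reads. The overlap itself is that of ARS-UCD2.0, while the reads were aligned to ARS-UCD1.2.

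**Figure D4:**
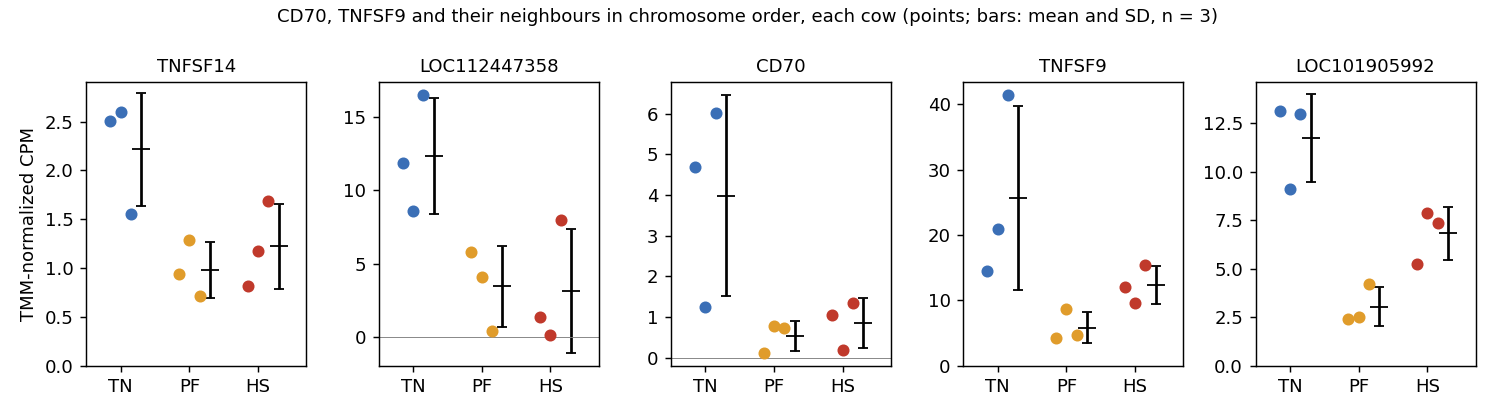
TMM-normalized CPM (vertical axes, linear, separate scale per gene) of *TNFSF14*, *LOC112447358*, *CD70*, *TNFSF9* and *LOC101905992* in each cow (points), with the group mean and SD (black bars, n = 3). All 3 PF points lie below the 3 TN points in each panel, and for *LOC101905992* the HS points lie between them.

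The neighbours of the other genes were as follows. *POLD4* and *RAD9A*, on either side of *CLCF1*, had PF vs. TN log2 fold changes of -0.14 (SE 0.31) and -0.45 (SE 0.37) with overlapping groups. In HS vs. PF, *RAD9A* had a log2 fold change of 0.53 (SE 0.34, edgeR FDR 0.9998), the direction in which *CLCF1* differed. Its HS cows, at 6.13 to 7.03 CPM, were above its PF cows, at 2.88 to 5.53 CPM, but 6.06% of all genes were likewise higher without overlap. *POLD4* had 0.15 (SE 0.27) there with overlapping groups. *PCYOX1L*, beside *IL17B*, had -0.72 (SE 0.64). *CCL3*, beside *LOC616364*, had -0.92 (SE 0.79) in PF vs. TN and 0.11 (SE 0.63) in HS vs. TN, where *LOC616364* itself had -3.40. *LOC100297044*, on its other side, had at most 2 counts in a library, and *LOC132345768*, beside *IL17B*, was not analysed here.

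The 5 genes did not vary alike from cow to cow. After group means were removed from log2(CPM + 0.5), the Pearson correlation over 9 libraries ranged from -0.51 (*IL17B* with *TNFSF9*) to 0.66 (*TNFSF9* with *LOC616364*) over the 10 pairs, with a median of -0.04 and 5 pairs positive. TN replicate 1 had the highest *IL17B* and the lowest *TNFSF9* and *LOC616364* of the TN cows, whereas TN replicate 2 had the lowest *CLCF1* and *CD70*.

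The genes most like each of the 5 over the 9 libraries, out of 15072, also had their highest mean in TN cows. For *IL17B* they were *LOC112445187* (Pearson r 0.977), *IMMP1L*, a mitochondrial inner membrane peptidase (0.954), and *GTSE1* (0.947). *TNFSF9* was most like *MKNK1*, a kinase of the translation factor eIF4E (0.963), *EVL* (0.954) and *C23H6orf141* (0.939). *CLCF1* was most like *CASP9*, the initiator caspase of the mitochondrial pathway (0.977), *SPTAN1* (0.960) and the circadian clock gene *PER3* (0.959).

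*PER3* averaged 21.1 CPM in TN cows, 9.32 in PF cows and 16.7 in HS cows, the same order as *CLCF1*. *CD70* was most like *MOCS1* (0.947), *DYNC1H1* (0.939) and *BICDL1* (0.936). Among the genes most like *LOC616364* were the mitochondrially encoded *COX1* (0.931) and *MOCOS* (0.926). *COX1* averaged 84094 CPM in TN cows, 29133 in PF cows and 16699 in HS cows. These correlations are descriptions over libraries that share group differences and mitochondrial read share.

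In biopsies of whole tissue, fewer cells of a type and less RNA per cell cannot be told apart. The 4 dendritic cell markers were *FLT3*, *XCR1*, *CLEC9A* and *CD83*. Their summed CPM was 28.7 to 46.1 in TN cows, 18.8 to 23.8 in PF cows and 21.8 to 36.9 in HS cows. The PF sums lay below the TN sums, but each of the 4 markers overlapped between these groups, unlike each of the 5 genes. All 4 markers were lower in PF than TN cows, 1 of them (*CD83*) at an unadjusted p below 0.05, and none was called by edgeR or DESeq2. The 8 macrophage markers summed to 1480 to 3438 CPM in TN cows, 1306 to 2103 in PF cows and 2204 to 3820 in HS cows. In PF vs. TN, 7 of them were lower and 1 higher (median log2 fold change -0.47). All 8 macrophage markers were higher in HS than PF cows, as were *TNFSF9* and *CLCF1*. Of the 8, 7 had an unadjusted p below 0.05 there (3.07% of all genes were higher), and edgeR and DESeq2 called 0. The 4 B-cell and 3 neutrophil markers were also all higher in HS than PF cows. In HS vs. TN all 8 macrophage markers were higher too, 1 of them called by DESeq2. There *TNFSF9* and *CLCF1* were lower (log2 fold changes -1.07 and -0.61).

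The 5 T-cell markers summed to 32.8 to 62.0 CPM in TN cows, 32.4 to 46.8 in PF cows and 30.3 to 38.4 in HS cows, with overlapping groups. The 4 B-cell markers summed to 11.2 to 13.9, 6.81 to 11.4 and 13.2 to 16.0 CPM. The hepatocyte sum was 15347 to 76507, 85155 to 114777 and 58065 to 124406 CPM, lower in each TN cow than in each PF cow. The 3 red blood cell markers summed to 3.41 to 22.4 CPM in TN cows, 0 to 2.30 in PF cows and 0.337 to 1.19 in HS cows, highest in TN cows without overlap. Taken singly, only *HBB* (beta-globin) was lower than in TN cows without overlap. Over all genes, 6.34% in PF and 7.48% in HS cows were likewise lower. *HBA* and *ALAS2* overlapped between groups. *HBA* went the other way, with DESeq2 log2 fold changes of 2.49 (SE 3.99) in PF vs. TN and 3.81 (SE 3.19) in HS vs. TN. *ALAS2* had -3.26 (SE 2.33) and -1.62 (SE 1.86). One of these 3 markers was at 0 in the TN libraries. *HBB*, the only one in the edgeR fit, had a log2 fold change of -2.99 (SE 0.93) in PF vs. TN and -4.04 (SE 0.74) in HS vs. TN. edgeR called it in neither, and DESeq2 called it lower in HS vs. TN (FDR 2.95e-07). The 3 neutrophil markers summed to 15.6 to 31.5, 7.40 to 53.5 and 35.2 to 124 CPM in TN, PF and HS cows, and the 4 cytotoxic and NK cell markers to 36.0 to 51.7, 35.9 to 42.3 and 48.6 to 59.7 CPM. The sums of the plasma cell, endothelial, stellate cell and bile duct lists overlapped between all groups. Outside the red blood cell list, no marker was at 0 in a group. The part of cell composition in the levels of the 5 genes was not tested.

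**Figure D5:**
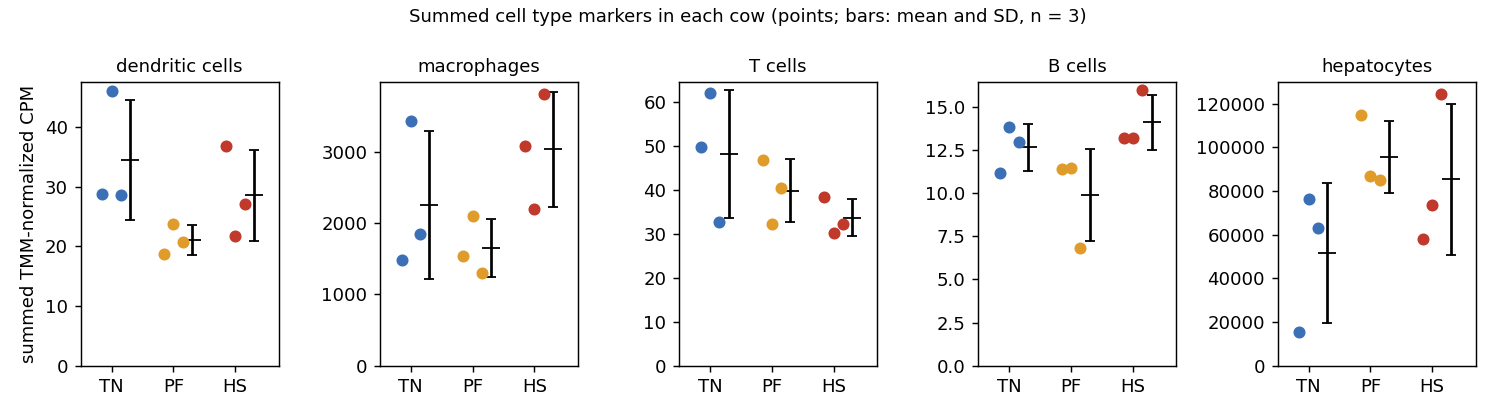
Summed TMM-normalized CPM (vertical axes, linear, separate scale per list) of dendritic cell, macrophage, T-cell, B-cell and hepatocyte markers in each cow (points), with the group mean and SD (black bars, n = 3). The dendritic sums of PF cows (18.8 to 23.8) lie below those of TN cows, and the macrophage sums of HS cows (2204 to 3820) above those of PF cows.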

How the data were processed

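The authors deposited raw read counts per gene for 9 liver libraries (poly-A RNA, paired-end), 3 per group. Per the labels and the study's methods, reads were trimmed with fastp 0.23.2, aligned with STAR 2.7.9a to ARS-UCD1.2 and counted with featureCounts 2.0.3; the annotation release, strand setting and treatment of multiply mapped reads are not given in the sources used here.

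For every comparison, edgeR 4.0.16 (TMM, filterByExpr, quasi-likelihood F test, R 4.3.3) was run on the 6 libraries compared; p-values were adjusted by Benjamini-Hochberg across the whole table, with calls at FDR below 0.1 and fold change over 1.5. DESeq2 1.42.0, the study's tool, was an alternative, with other scalings, filters, a 9-library fit, a replicate block and each cow left out. Scripts were tested on simulated data. P-values measure the spread between cows of 1 biopsy each.

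The 5 genes and all lists were chosen with earlier results of these data known. Named genes were the 5 genes, partner receptors, the nearest RefSeq gene on each side, the 3 most correlated genes, and, of the other cytokine genes, those called by either tool, the 3 of largest change per direction among those with p below 0.05 and no overlap, and the 2 next outside the DESeq2 threshold. A few genes that the rule names are not reported here. Gene neighbours came from RefSeq (ARS-UCD2.0), in which 24366 of 28786 symbols were found; since builds differ, no coordinates are given. Same-numbered cows of different groups did not vary together (correlations -0.217 to 0.241 over 9 pairs).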

Additional observations from a re-analysis of the deposited data

How the results depend on the processing

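No value of the 5 genes changed sign under any alternative run, and group mean CPM moved by less than 1 SD without TMM or with mitochondrial genes left out of the total. That SD is wide in TN cows, where the largest shifts lay. With mitochondrial genes left out of the total, the TN mean was 9.04 in place of 6.22 CPM for *IL17B* and 13.2 in place of 9.58 for *CLCF1*. Their PF means were 0.493 in place of 0.476 and 2.90 in place of 2.79 CPM. Counts of calls depended on the tool. In PF vs. TN, edgeR called 0 of the 5 genes, against 5 by DESeq2 and 5 without a filter on low counts, and 0 to 1 when 1 cow was left out (*IL17B* without TN replicate 2, FDR 0.0647). In HS vs. TN it called 1, against 2 by DESeq2, 2 without the filter, 0 with all 9 libraries in 1 fit, 0 at FDR below 0.05, and 0 to 1 when 1 cow was left out. Of the other cytokine and receptor genes edgeR called 0 in each comparison. DESeq2 called 1 in PF vs. TN, 3 in HS vs. TN and 1 in HS vs. PF, and edgeR without the filter called 2, 2 and 1. Leaving out 1 cow gave 0 to 1 of them in HS vs. TN (1 without TN replicate 2). The sources used here do not say whether the replicate numbers pair the cows. With a replicate block, 0 of the 5 genes were called in PF vs. TN and 1 in HS vs. TN, and 1 other cytokine gene was called in HS vs. TN. Requiring 10 counts in every library left out *IL17B* and *CD70*. With 3 cows per group and under 30 counts per library in PF or HS cows, *IL17B* and *CD70* are the least precise. The causes were not tested.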
